A study of Mus musculus with 20 samples.

Results

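The genes described here are the 10 mouse genes Acly, Acss2, Acaca, Fasn, Elovl5, Elovl6, Scd1, Scd2, Fads1 and Fads2, which encode the enzymes that build fatty acids in the cytosol, lengthen them and put double bonds into them. They were picked by gene symbol for their place in the pathway, 10 of the 32285 genes in the table of transcript levels. All 10 were among the 12350 genes with a level of at least 1 TPM (a gene's share of all transcripts, scaled by its length and to a fixed total) in at least 5 of 20 libraries, which were the genes tested. RNA was measured by bulk sequencing of polyadenylated RNA in immortalised primary mouse cancer-associated fibroblasts (CAFs), the fibroblasts of tumour stroma, in 4 groups of 5 libraries. The first group was cultured in 0.2 mM glutamine with 25 uM EIPA, and its control in 0.2 mM glutamine with the vehicle DMSO. The next group had 4 mM glutamine with 25 pg/mL of the cytokine IL-1a and DMSO, and its control had 4 mM glutamine with DMSO. The sample titles name DMSO for every group except the one with EIPA. Every culture was kept under its condition for 32 h. EIPA is an amiloride derivative that blocks sodium-proton exchange and is used to stop macropinocytosis, by which cells swallow extracellular fluid. The treatment protocol states the EIPA dose as 25 mM and the sample titles as 25 uM, the value used here. The labels name neither the mouse strain nor the number of lines behind the cells, and do not state that the 5 libraries of a group came from separate cultures, so a p-value covers no more than the spread between the libraries of a group, which may be technical.

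Cytosolic fatty acid synthesis starts from acetyl-CoA, made from exported citrate by Acly or from acetate by Acss2. Acaca carboxylates it to malonyl-CoA, and Fasn joins these units into palmitate. Elovl6 lengthens palmitate, Scd1 and Scd2 place the first double bond in saturated chains, and Elovl5, Fads1 and Fads2 act mainly on the polyunsaturated chains that start from dietary precursors. Transcription of most of these genes is known to be driven by the sterol regulatory element binding proteins, membrane-bound factors that are cut free when sterols are low.

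Levels are given in TPM with the SD after ±, and log2 fold changes, on the log2(TPM + 1) scale, carry their SE. Each group has n = 5 libraries. A gene is said to have risen or fallen only where limma's adjusted p was under 0.05. Because the samples are bulk RNA, a lower level cannot be told apart as fewer cells of a kind or less RNA per cell.

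Between 11749 and 12045 genes reached 1 TPM per library, and TPM keep no record of sequencing depth, which is unknown. Of 10 fibroblast markers, 9 averaged at least 1 TPM in every group, with Thy1 at 0.91 to 7.34 TPM over the libraries. Fap, often used to define CAFs, was at or near 0, with 0.31 TPM as its highest value. The summed level of the fibroblast markers was 2159 to 2436 TPM in EIPA libraries and 3491 to 4167 TPM in vehicle libraries at 0.2 mM, against 7739 to 10014 TPM with IL-1a and 9225 to 10294 TPM in vehicle at 4 mM. Of 9 adipocyte markers, Plin1 and Cfd were at 0 in every library, Adipoq, Lep, Cidec and Retn did not exceed 0.20 TPM, and Lpl and Pparg were expressed. The ninth, Fabp4, a fatty acid binding protein, averaged 3.26 ± 0.74 TPM in EIPA against 0.198 ± 0.259 TPM in vehicle at 0.2 mM, and rose with EIPA (1.84 ± 0.24, limma adjusted p = 3.5e-06). The adipocyte sum was 16.6 to 28.5 TPM in EIPA and 29.4 to 39.1 TPM in vehicle at 0.2 mM. Of 6 leukocyte markers, Ptprc did not exceed 0.01 TPM and Adgre1 and Cd3e were at 0, while Cd68 stood at 1.56 to 8.70 TPM and Csf1r reached 1.53 TPM. Their sum was 7.69 to 9.41 TPM in EIPA against 2.01 to 2.70 TPM in vehicle at 0.2 mM. Of 6 epithelial markers, Epcam did not exceed 0.36 TPM and Krt8 0.48 TPM, and Cdh1 and Muc1 reached 2.36 and 2.21 TPM. Krt18 stood at 4.02 to 17.4 TPM and Krt19 at 78.2 to 380 TPM. The sum of the 6 was 89.0 to 120 TPM in EIPA and 133 to 206 TPM in vehicle at 0.2 mM. In vehicle at 4 mM it was 187 to 399 TPM. Of 4 endothelial markers, Pecam1 did not exceed 0.35 TPM and Kdr stood at 1.71 to 9.84 TPM, with sums of 6.69 to 9.26 TPM in EIPA, 6.33 to 10.3 TPM in vehicle at 0.2 mM and 2.90 to 4.04 TPM in vehicle at 4 mM. Sox10 of Schwann cells was at 0. At 4 mM glutamine, 3 libraries stood apart from the other 7, namely IL-1a replicates 1 and 5 and vehicle replicate 5, with Ccn1 at 201 to 235 TPM against 379 to 599 TPM in the others. Among the EIPA libraries, replicates 4 and 5 lay above replicates 1 to 3 in 9 of the 10 genes, all but Elovl5, as they did in 25.6% of tested genes (and below in 22.2%). Calls that these libraries decide are given with and without them.

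Promoter sequences from RefSeq (GRCm38.p6), 250 bases before to 50 after the start of transcription, were found for 7 of the 10 genes. The Acaca window is set on a start 65766 bases downstream of the gene's first start in GENCODE, and that of Fads2 on one 243 bases downstream. The starts of the other 5 lie within 95 bases of it. The 4 shown are those of the lyase Acly, the synthase Fasn and the elongase pair, whose members differed widely in response in these same data. Capitals mark matches to CCAAT, to GGGCGG (the GC box) and to CACGTG (the E-box), each searched on both strands, and each sequence is written 5′ to 3′ on the strand of its gene.
Acly promoter, minus strand, chr11:100527951-100528250: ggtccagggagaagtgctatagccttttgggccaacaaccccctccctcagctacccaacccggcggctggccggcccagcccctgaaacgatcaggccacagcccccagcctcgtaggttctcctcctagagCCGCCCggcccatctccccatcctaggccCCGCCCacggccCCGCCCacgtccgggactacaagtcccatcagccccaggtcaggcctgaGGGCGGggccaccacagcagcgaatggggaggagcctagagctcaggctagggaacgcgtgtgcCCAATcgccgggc
Fasn promoter, minus strand, chr11:120824498-120824797: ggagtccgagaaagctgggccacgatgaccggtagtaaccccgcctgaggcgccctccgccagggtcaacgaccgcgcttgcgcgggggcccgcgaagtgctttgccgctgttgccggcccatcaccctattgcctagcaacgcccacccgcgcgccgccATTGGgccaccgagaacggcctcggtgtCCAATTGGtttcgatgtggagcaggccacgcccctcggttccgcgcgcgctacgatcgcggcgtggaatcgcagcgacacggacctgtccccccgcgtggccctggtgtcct
Elovl6 promoter, plus strand, chr3:129532136-129532435: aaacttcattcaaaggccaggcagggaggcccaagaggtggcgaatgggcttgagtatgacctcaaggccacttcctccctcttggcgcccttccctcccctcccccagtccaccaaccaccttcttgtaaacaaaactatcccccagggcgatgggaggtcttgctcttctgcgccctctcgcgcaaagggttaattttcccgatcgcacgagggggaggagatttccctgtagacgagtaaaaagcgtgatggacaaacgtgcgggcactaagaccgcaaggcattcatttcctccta
Elovl5 promoter, plus strand, chr9:77917115-77917414: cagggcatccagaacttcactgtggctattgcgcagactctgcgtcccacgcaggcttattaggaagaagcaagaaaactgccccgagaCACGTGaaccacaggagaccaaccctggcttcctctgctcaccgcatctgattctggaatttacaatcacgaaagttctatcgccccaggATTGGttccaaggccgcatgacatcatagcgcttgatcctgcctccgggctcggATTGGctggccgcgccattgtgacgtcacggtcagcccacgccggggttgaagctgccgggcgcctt

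In the Fasn promoter, CCAAT lay at positions -90, -62 and -59 relative to the start, the last of these overlapping its neighbour on the other strand. The Acly promoter held 4 GC boxes and a CCAAT just after the start, and the Elovl5 promoter held CCAAT at -71 and -17 and the E-box at -161. The Elovl6 promoter held none of these motifs. Over the 7 promoters found, CCAAT occurred in 4 (Acly, Acss2, Fasn and Elovl5), against 37.4% of the 32851 promoters of the same length in the table. The GC box occurred in 3 (Acly, Acss2 and Fads2), against 35.7%, and the E-box in 1, against 7.15%. The letters TCACNCCAC, a spelling of the sterol element, were in none of the 7 windows and in 1.24% of all promoters. With the Acaca and Fads2 windows left out, CCAAT occurred in 4 of 5, the GC box in 2 and the E-box in 1. These are matches of letters and no record of binding.

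With EIPA at 0.2 mM glutamine, all 10 genes were higher than in vehicle and all 10 were called, where 48.5% of all tested genes were called, 27.4% higher and 21.1% lower. The log2 fold changes ran between 0.30 and 2.82 with a median of 1.64, against a median of 0.02 over all tested genes. In 9 of the 10 genes every EIPA library lay above every vehicle library, where the groups did not overlap for 34.6% of all tested genes, 20% with EIPA above vehicle. Scd2 and Elovl6 had the steepest rises, and Acaca, which makes malonyl-CoA, was the gene whose groups overlapped. Without EIPA replicates 4 and 5, 9 of the 10 genes were still called higher, all but Acaca, a check chosen after the data were seen.

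In vehicle, 0.2 mM glutamine went with lower levels of all 10 genes than 4 mM, all 10 called, where 73.3% of tested genes were called and 27.9% were called lower (45.4% higher, or 35.5% higher and 35.9% lower under median-of-ratios scaling, which left all 10 genes called lower). The groups did not overlap in any of the 10, where 59.9% of tested genes had groups apart, 22.7% of tested genes in that direction. The median tested gene was higher by 0.14 (log2) at 0.2 mM, and the 10 genes lay between -3.26 and -0.35 relative to it, with a median of -1.33. This comparison and that of EIPA share the vehicle libraries at 0.2 mM, so a low value there enters both, and their values are set side by side only.

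**Figure D1:**
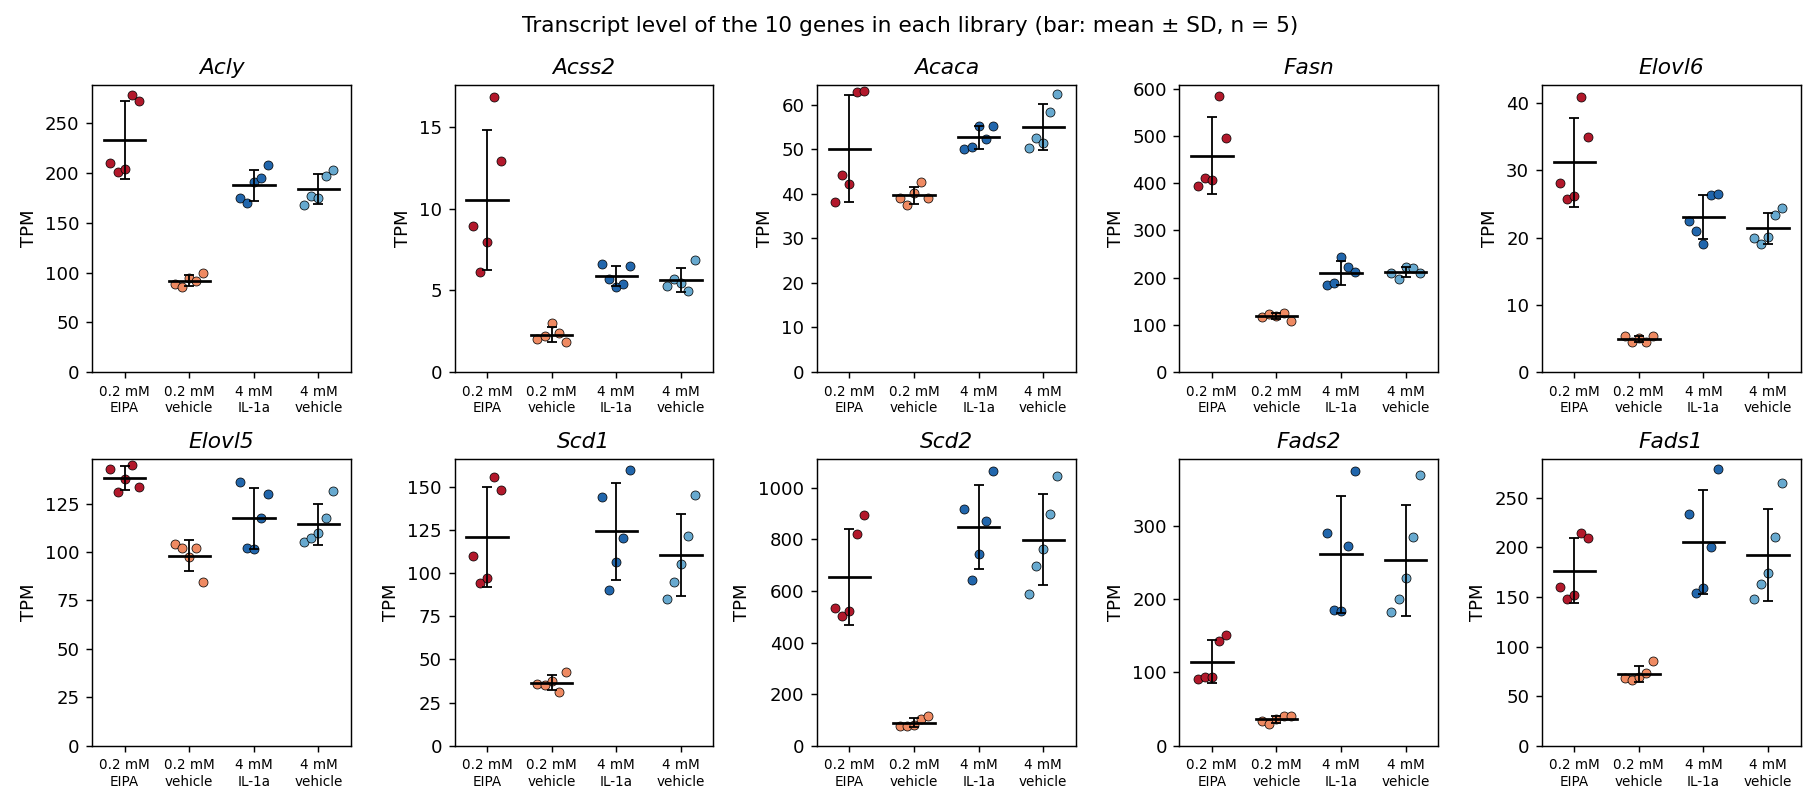
Level of each of the 10 genes (TPM, linear axes that start at 0) in every library of the 4 groups, replicates 1 to 5 drawn left to right, with mean and SD (n = 5). The mean of vehicle at 0.2 mM glutamine is lowest in every panel. In the Acaca panel EIPA libraries reach down among the vehicle libraries at 0.2 mM, and in the Elovl5 panel IL-1a libraries do.

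The suppliers of acetyl-CoA come first. Acly, ATP citrate lyase (chr11:100476353-100528000, minus strand, mm10), stood at 211, 201, 204, 279 and 272 TPM in EIPA libraries 1 to 5, against 88.5, 85.9, 94.2, 91.4 and 100 TPM in vehicle at 0.2 mM. Vehicle libraries at 4 mM gave 168, 177, 175, 197 and 203 TPM. The vehicle libraries at 0.2 mM were thus clear of both other groups, and the 3 lowest EIPA libraries lay just above or among those with vehicle at 4 mM. Acly rose with EIPA (1.32 ± 0.09, limma adjusted p = 2.4e-10) and was lower at 0.2 than at 4 mM glutamine (-0.99 ± 0.09, limma adjusted p = 2.2e-09), or -1.13 relative to the median gene. Acss2, which charges acetate with CoA (chr2:155517948-155585724, plus strand), was the least abundant of the 10, at 8.95, 6.14, 7.97, 16.8 and 12.9 TPM in EIPA libraries, 2.04, 2.22, 3.0, 2.39 and 1.81 TPM in vehicle at 0.2 mM, and 5.25, 5.73, 5.44, 4.98 and 6.84 TPM in vehicle at 4 mM. Its EIPA libraries varied by 40.7% of their mean (coefficient of variation), the widest spread of any of the 10 genes in any group. It rose with EIPA (1.75 ± 0.17, limma adjusted p = 6.7e-08) and was lower at 0.2 mM (-1.02 ± 0.17, limma adjusted p = 2.0e-05), or -1.15 relative to the median gene. At such levels the added 1 TPM shrinks the fold change: the ratio of mean TPM was 4.61 with EIPA.

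Fasn, fatty acid synthase (chr11:120805846-120824547, minus strand), was at 393, 411, 408, 585 and 496 TPM in EIPA libraries, 117, 123, 119, 126 and 109 TPM in vehicle at 0.2 mM, and 210.1, 196, 222, 220.2 and 209.6 TPM in vehicle at 4 mM. The 3 groups did not overlap, with EIPA above both vehicle groups. Fasn rose with EIPA (1.93 ± 0.09, limma adjusted p = 8.1e-13), the smallest p of the 10, and was lower at 0.2 mM (-0.83 ± 0.09, limma adjusted p = 5.9e-08), or -0.97 relative to the median gene. Acaca, acetyl-CoA carboxylase 1 (chr11:84129672-84401651, plus strand), was at 38.2, 44.3, 42.2, 62.9 and 63.1 TPM in EIPA libraries against 39.0, 37.5, 40.2, 42.6 and 39.1 TPM in vehicle at 0.2 mM. EIPA replicates 1 and 3 lay inside the vehicle range and replicate 2 just above it, while replicates 4 and 5 stood well clear. The call of a rise (0.30 ± 0.11, limma adjusted p = 0.025) was lost without EIPA replicate 4 or 5 (0.21 in each case, adjusted p = 0.089), without both (0.06, adjusted p = 0.48). Leaving out replicate 2 of the vehicle group lost it as well (0.28, adjusted p = 0.054), as did quantile normalisation (0.25, adjusted p = 0.055), no filter (adjusted p = 0.05005) and fitting only the groups compared (adjusted p = 0.068). Over its 20 alternatives the adjusted p of Acaca ran between 0.0039 and 0.48. Vehicle libraries at 4 mM had 50.3, 52.4, 51.4, 58.4 and 62.4 TPM of Acaca, all above those at 0.2 mM, and the gene was lower at 0.2 mM (-0.46 ± 0.11, limma adjusted p = 0.00069), or -0.59 relative to the median gene. Of the 75-base windows of Acaca transcripts, 26.8% also occur in transcripts of other genes, so its level is uncertain where reads were shared.

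The elongases Elovl6 and Elovl5 differed most from each other. Elovl6, which carries palmitate to stearate (chr3:129532355-129638495, plus strand), had 28.1, 25.7, 26.2, 40.9 and 35.0 TPM in EIPA libraries, 5.43, 4.49, 4.99, 4.49 and 5.39 TPM in vehicle at 0.2 mM, and 19.9, 19.1, 20.1, 23.4 and 24.4 TPM in vehicle at 4 mM. The groups with EIPA, with vehicle at 0.2 mM and with vehicle at 4 mM did not overlap. Elovl6 rose with EIPA (2.41 ± 0.12, limma adjusted p = 1.1e-12) and was lower at 0.2 mM (-1.91 ± 0.12, limma adjusted p = 8.3e-12), or -2.04 relative to the median gene. Elovl5 (chr9:77917364-77984519, plus strand), which lengthens polyunsaturated chains, had 143, 131, 138, 145 and 133 TPM in EIPA libraries, 104, 102, 97.2, 102 and 84.7 TPM in vehicle at 0.2 mM, and 105, 107, 109.7, 118 and 132 TPM in vehicle at 4 mM. Its vehicle groups nearly met, the highest library at 0.2 mM being 104 TPM and the lowest at 4 mM 105 TPM. Elovl5 rose with EIPA (0.49 ± 0.08, limma adjusted p = 3.7e-05) and was lower at 0.2 mM (-0.22 ± 0.08, limma adjusted p = 0.019), or -0.35 relative to the median gene. The second call was lost without vehicle replicate 5 at 0.2 mM (-0.17, adjusted p = 0.067), or at 4 mM (-0.16, adjusted p = 0.068), in a range of 0.00019 to 0.068 over its 19 alternatives.

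The stearoyl-CoA desaturases lie 87590 bases apart on chromosome 19. Scd2 (chr19:44293674-44306864, plus strand) was the most abundant of the 10 genes except in vehicle at 0.2 mM, with 536, 502, 521, 819.6 and 895 TPM in EIPA libraries, 76.3, 75.2, 82.0, 104 and 114 TPM in vehicle at 0.2 mM, and 589.8, 697, 763, 899 and 1046 TPM in vehicle at 4 mM. Vehicle libraries at 0.2 mM lay far under both other groups, which overlapped each other. Scd2 rose with EIPA (2.82 ± 0.18, limma adjusted p = 1.3e-10) and was lower at 0.2 mM (-3.12 ± 0.18, limma adjusted p = 3.7e-12), or -3.26 relative to the median gene, and these were the steepest changes among the 10 in both comparisons. Without EIPA replicates 4 and 5 the rise was 2.53. Scd1 (chr19:44394455-44407879, minus strand) had 110.1, 94.3, 97.1, 156 and 148 TPM in EIPA libraries, 35.5, 35.0, 37.8, 31.3 and 43.0 TPM in vehicle at 0.2 mM, and 85.3, 95.0, 105, 121 and 146 TPM in vehicle at 4 mM. Here too, vehicle at 0.2 mM was apart and the other groups overlapped. Scd1 rose with EIPA (1.68 ± 0.16, limma adjusted p = 5.8e-08) and was lower at 0.2 mM (-1.55 ± 0.16, limma adjusted p = 3.3e-08), or -1.69 relative to the median gene. Scd1 and Scd2 share 3.15% and 1.78% of their 75-base windows with other genes, mostly of the Scd family, so a small part of their reads could be split between them.

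The fatty acid desaturases Fads2 and Fads1, which catalyse the first and a later desaturation of polyunsaturated chains, lie 81141 bases apart on the same chromosome. Fads2 (chr19:10062765-10101746, minus strand) had 91.4, 93.2, 94.4, 142 and 151 TPM in EIPA libraries, 33.7, 29.3, 36.2, 40.9 and 40.4 TPM in vehicle at 0.2 mM, and 182, 200.4, 229, 285 and 369 TPM in vehicle at 4 mM. Its 3 groups were separate, with EIPA between both vehicle groups. Fads2 rose with EIPA (1.61 ± 0.20, limma adjusted p = 1.8e-06) and was lower at 0.2 mM (-2.74 ± 0.20, limma adjusted p = 1.6e-10), or -2.87 relative to the median gene. Fads1 (chr19:10182888-10196877, plus strand) had 160.2, 148, 152, 214 and 209 TPM in EIPA libraries, 68.0, 66.3, 69.6, 73.4 and 85.8 TPM in vehicle at 0.2 mM, and 148, 163, 174, 211 and 265 TPM in vehicle at 4 mM. The EIPA libraries lay within the range of vehicle at 4 mM save for replicate 2, just under its lower end. Fads1 rose with EIPA (1.26 ± 0.16, limma adjusted p = 2.3e-06) and was lower at 0.2 mM (-1.37 ± 0.16, limma adjusted p = 1.6e-07), or -1.50 relative to the median gene.

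Without the 3 libraries that stood apart at 4 mM, all 10 genes were still called lower at 0.2 mM, with Scd2 at -3.02 and Fads2 at -2.59. Those 3 libraries had more Fads2, at 290.1 to 374 TPM against 182 to 285 TPM in the other 7 at 4 mM, and they lay above the other 7 in 6 of the 10 genes (Acss2, Elovl5, Scd1, Scd2, Fads1 and Fads2), as in 15.7% of tested genes (below them in 6.74%). The share of TPM from mitochondrially encoded genes was 5.69% ± 0.63 in EIPA and 8.87% ± 0.28 in vehicle at 0.2 mM, against 10.4% ± 1.17 in vehicle at 4 mM. With those genes left out and the rest rescaled, the rise with EIPA was 2.77 for Scd2. Of the 10 genes, 9 were called higher, where 22.5% of tested genes were called higher and 25.4% lower. Acaca then had 0.25 (adjusted p = 0.060). The summed fibroblast markers given above were lower in EIPA than in vehicle at 0.2 mM, and lower at 0.2 than at 4 mM. The leukocyte sum, in which only Cd68 averaged at least 1 TPM in either group, was higher in EIPA than in vehicle at 0.2 mM. The epithelial sum was lower. The part of these markers in the results was not tested.

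With IL-1a at 4 mM glutamine, none of the 10 genes was called, where limma called 0.283% of tested genes (0.259% higher and 0.0243% lower), and none had an unadjusted p under 0.05. Every gene's groups overlapped, where 1.38% of tested genes had groups that did not (0.777% higher and 0.599% lower). Mean levels were 848 ± 162 TPM with IL-1a against 799 ± 178 TPM in vehicle for Scd2, and 209.9 ± 24.7 TPM against 212 ± 10.3 TPM for Fasn. Fads2, with 184 to 374 TPM with IL-1a and 182 to 369 TPM in vehicle, had the widest spread of the 10 within both groups relative to its mean (coefficients of variation of 30.5% and 29.9%). Log2 fold changes ran between -0.06 for Acaca and 0.16 for Scd1, all with limma adjusted p = 0.999. Each 95% interval holds for its own gene and covers no more than the spread between libraries. Over the 10 genes the intervals reached down to -0.38 (Fads2) and up to 0.51 (Scd1), and that of Fasn ran between -0.21 and 0.17. The sign of the change in Fads1, Acly, Fads2, Fasn, Scd2 and Elovl5 turned when single libraries were left out.

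The EIPA response exceeded the IL-1a response in a direct test of their difference, which 28.9% of tested genes passed, 16.3% with the higher and 12.6% with the lower EIPA response (13.2% and 15.2% with mitochondrially encoded genes left out). It was called for 9 of the 10 genes, led by Scd2 (difference 2.73 ± 0.25, limma adjusted p = 1.6e-07) and Elovl6 (2.31 ± 0.16, limma adjusted p = 1.9e-09). Acaca did not pass (0.36 ± 0.15, limma adjusted p = 0.081), but was called without EIPA replicate 1 (0.45, adjusted p = 0.022, in a range of 0.022 to 0.34 over its alternatives). The 2 treatments were given at different glutamine levels, so treatment and glutamine cannot be told apart in this difference.

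**Figure D2:**
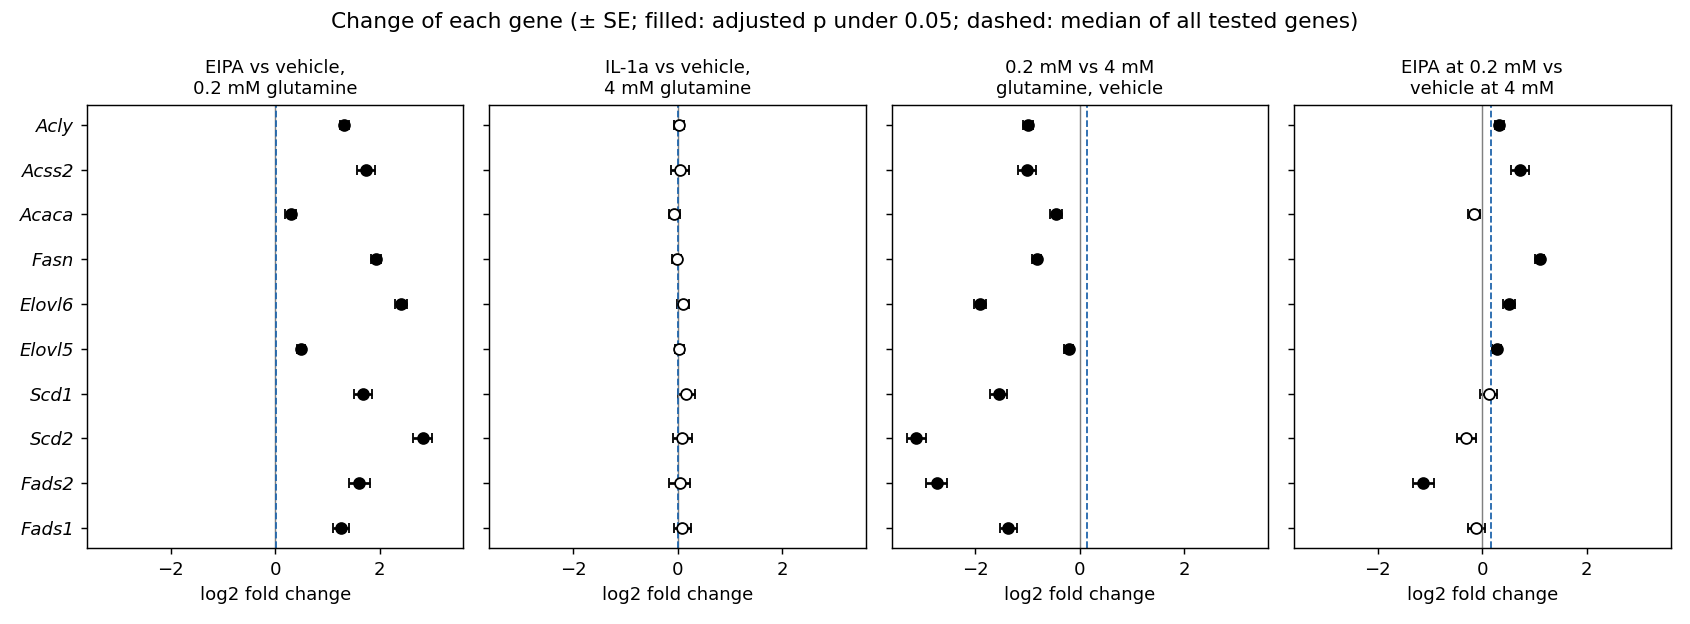
Log2 fold change (x axis) with SE of each of the 10 genes in 4 comparisons, filled where limma's adjusted p was under 0.05, with the median of all tested genes dashed. All 10 points are filled right of 0 with EIPA and left of 0 for glutamine, none is filled with IL-1a, and the last panel splits between Fasn at 1.10 and Fads2 at -1.13.

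Set against vehicle at 4 mM, EIPA libraries had some of the genes higher and 1 lower. Of the 10 genes, 5 were called higher and 1 lower, where 48.7% of tested genes were called higher and 28.0% lower, and 76.7% in all (37.2% higher and 37.4% lower under median-of-ratios scaling). This comparison changes glutamine and EIPA together, and its median tested gene was higher by 0.18. Fasn was higher in EIPA (459 ± 81.4 TPM against 212 ± 10.3 TPM, log2 fold change 1.10 ± 0.09, limma adjusted p = 6.2e-10), or 0.92 relative to the median gene. Fads2 was lower in EIPA (114 ± 29.4 TPM against 253 ± 75.7 TPM, -1.13 ± 0.20, limma adjusted p = 3.7e-05), or -1.30 relative to the median gene. Acss2 (0.73), Elovl6 (0.51), Acly (0.33) and Elovl5 (0.28) were called higher, while Scd1 (0.12), Fads1 (-0.11), Acaca (-0.16) and Scd2 (-0.30) did not pass. The groups did not overlap for Fasn and Elovl6, higher in EIPA, and for Fads2, lower in EIPA, where 64.7% of tested genes were so separated, 41.6% higher and 23.1% lower. Scaling by the median of ratios gave 3 genes higher and 3 lower, with Acly and Elovl5 no longer called and Acaca (-0.34) and Scd2 (-0.49) called lower. Without EIPA replicates 4 and 5, Acaca (-0.39) and Scd2 (-0.59) were called lower too. The higher calls were then smaller for Acss2 (0.38), Elovl6 (0.31) and Acly (0.16, adjusted p = 0.0499, in a range of 4.0e-05 to 0.13 over its alternatives).

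In the order of group means, vehicle at 0.2 mM was lowest for all 10 genes. EIPA was highest for Acly, Acss2, Fasn, Elovl5 and Elovl6, IL-1a at 4 mM for Scd1, Scd2, Fads1 and Fads2, and vehicle at 4 mM for Acaca. The IL-1a and vehicle groups at 4 mM overlapped in every gene, so their order carries no difference. The highest mean exceeded the lowest 9.40-fold for Scd2, 7.24-fold for Fads2 and 6.29-fold for Elovl6, but 1.39-fold for Acaca and 1.41-fold for Elovl5.

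Ratios within a library compare enzymes of a kind, and a ratio of TPM needs no scaling between libraries. The ratios given are of TPM, but the log2 differences and tests use TPM + 1. The added 1 TPM shrinks the differences that involve Elovl6 in vehicle at 0.2 mM, and lets scaling enter slightly. Testing was by two-sided exact permutation of the library labels, adjusted over 9 tests. The ratio of Scd2 to Scd1 was 5.37 ± 0.42 in EIPA libraries against 2.49 ± 0.51 in vehicle at 0.2 mM, and 7.22 ± 0.19 in vehicle at 4 mM. The ratio of Elovl6 to Elovl5 was 0.225 ± 0.043 in EIPA against 0.0510 ± 0.0081 in vehicle at 0.2 mM, and 0.187 ± 0.0079 in vehicle at 4 mM. For Fads2 to Fads1 it was 0.641 ± 0.055 in EIPA against 0.497 ± 0.044 in vehicle at 0.2 mM, and 1.30 ± 0.07 in vehicle at 4 mM. All 3 ratios were higher with EIPA, by 1.14, 1.92 and 0.35 (log2) in the order given. All 3 were lower at 0.2 than at 4 mM glutamine in vehicle, with log2 differences of -1.57, -1.69 and -1.37. The groups did not overlap in any of these 6 tests, each with exact permutation p = 0.0079, the smallest that 5 against 5 libraries allow, and adjusted p = 0.012. With IL-1a the ratios of Scd2 to Scd1 (6.88 ± 0.36), Elovl6 to Elovl5 (0.197 ± 0.022) and Fads2 to Fads1 (1.26 ± 0.09) differed from vehicle at 4 mM by -0.07, 0.06 and -0.05 (log2), with exact permutation p = 0.10, 0.44 and 0.43. On the TPM scale, which is per transcript length, Fads1 was the more abundant of its pair in every library at 0.2 mM glutamine and Fads2 in every library at 4 mM.

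**Figure D3:**
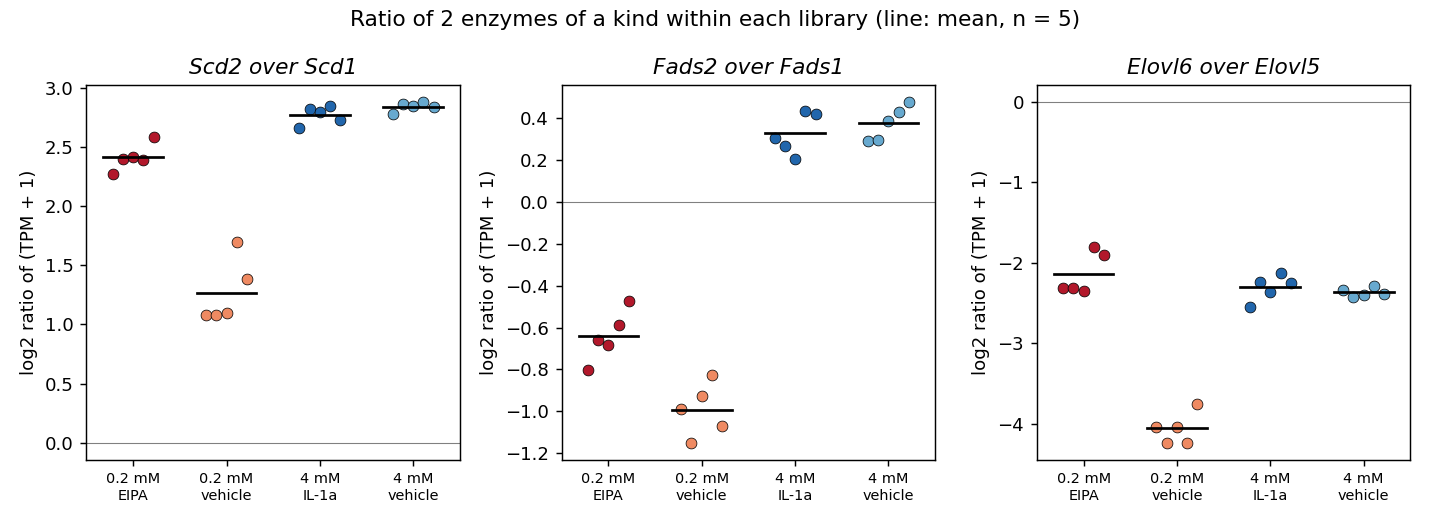
Log2 ratio of (TPM + 1) of Scd2 to Scd1, Fads2 to Fads1 and Elovl6 to Elovl5 in each library of the 4 groups, with the mean as a line (n = 5). The EIPA libraries lie above vehicle at 0.2 mM in every panel, and for Fads2 to Fads1 both groups at 0.2 mM lie under 0 and both at 4 mM above it.

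Summed over the 10 genes, the level was 1989 ± 412 TPM in EIPA libraries and 591 ± 28.2 TPM in vehicle at 0.2 mM, and 2036 ± 346 TPM with IL-1a and 1947 ± 358 TPM in vehicle at 4 mM. EIPA libraries and vehicle at 4 mM thus had sums in the same range but a different make-up. Fasn gave 23.2% ± 1.65 of the sum in EIPA libraries, against 20.1% ± 1.60 in vehicle at 0.2 mM and 11.1% ± 1.85 in vehicle at 4 mM. Scd2 gave 32.5% ± 2.76 in EIPA libraries, 15.2% ± 2.22 in vehicle at 0.2 mM and 40.8% ± 1.87 in vehicle at 4 mM. Fads2 gave 5.71% ± 0.34 in EIPA libraries, 6.08% ± 0.55 in vehicle at 0.2 mM and 12.8% ± 1.41 in vehicle at 4 mM. EIPA replicates 4 and 5 summed to 2462 and 2416 TPM, against 1656 to 1719 TPM in replicates 1 to 3.

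**Figure D4:**
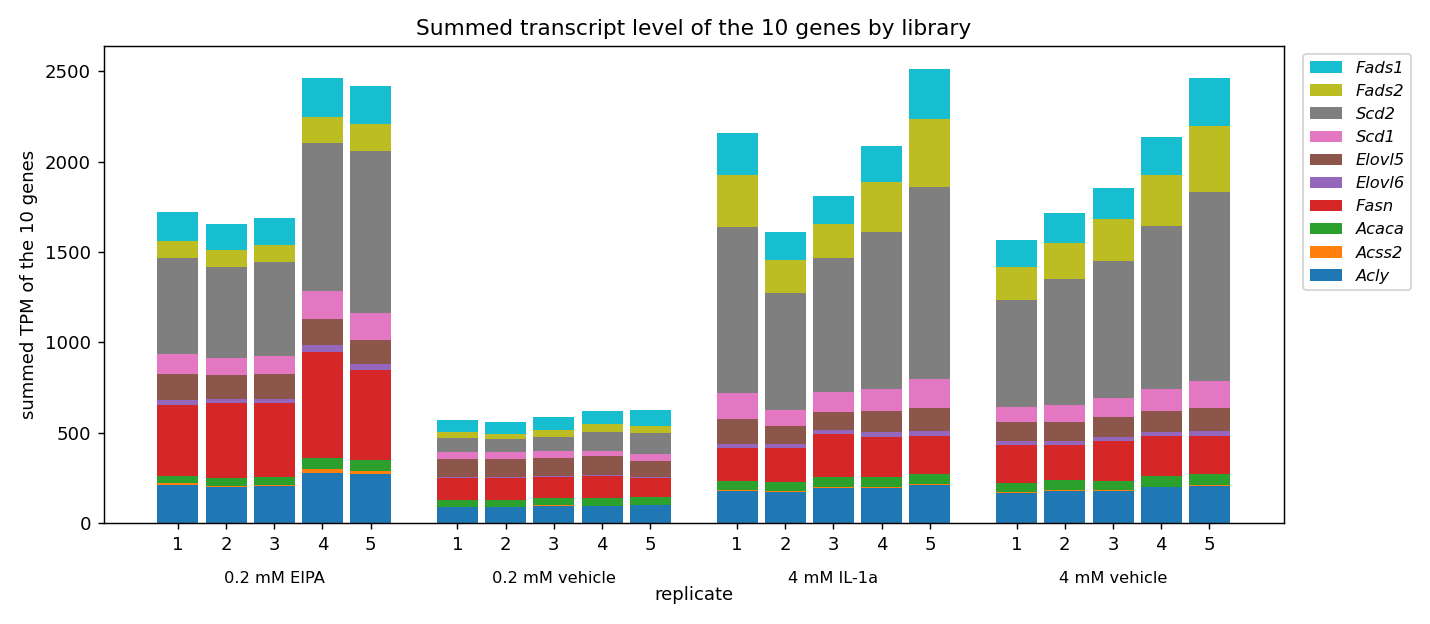
Summed TPM of the 10 genes in each library (stacked bars from 0, colours for genes, replicates 1 to 5 in each of 4 groups). The 5 vehicle libraries at 0.2 mM stay between 561 and 623 TPM and all others at 1564 TPM or more. Fasn (red) is higher in EIPA than at 4 mM, and Fads2 (olive) higher at 4 mM. Scd2 (grey) overlaps between EIPA and 4 mM in TPM but gives a larger share of the sum at 4 mM.

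Around the pathway, genes of 7 lists were counted beside the shares of all tested genes. With EIPA 48.5% of tested genes were called, 27.4% higher and 21.1% lower (23.1% and 24.5% under quantile normalisation). For glutamine 73.3% were called, 45.4% higher and 27.9% lower (35.5% and 35.9% under median-of-ratios scaling). In the list of cholesterol synthesis and uptake, all 23 genes rose with EIPA (median 2.21), and all 23 fell at 0.2 against 4 mM glutamine (median -1.53 relative to the median gene).

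Among 14 tested genes that supply citrate, malonyl-CoA and NADPH, 5 rose, 3 fell and 6 did not pass with EIPA, and 4 were higher and 10 lower at 0.2 mM glutamine (2 and 10 under median-of-ratios scaling). Idh1, a cytosolic NADPH source, had 60.2 ± 11.7 TPM in EIPA against 17.7 ± 1.16 TPM in vehicle at 0.2 mM and rose by 1.69 ± 0.13. Pgd, of the pentose phosphate route, rose by 1.34 ± 0.10, and Slc25a1, which exports citrate from mitochondria, by 1.17 ± 0.11. Me2, the mitochondrial malic enzyme, fell by 0.51 ± 0.05 on the log2 scale. Me1, the cytosolic malic enzyme, had a change of 0.14 ± 0.07 (limma adjusted p = 0.11), and Acacb, the carboxylase isoform at mitochondria, 0.18 ± 0.16 (limma adjusted p = 0.37). Acacb stood at only 2.28 ± 0.35 TPM in EIPA and 1.92 ± 0.59 TPM in vehicle at 0.2 mM, where the added 1 TPM shrinks a fold change.

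Of 14 tested further elongation and desaturation genes, 6 rose and 3 fell with EIPA, with a median of 0.10, and 3 were higher and 6 lower at 0.2 mM glutamine (2 and 9 under median-of-ratios scaling). Hsd17b12, which carries out the ketoreduction step of elongation, rose by 0.83 ± 0.07 and was lower at 0.2 mM (-0.86 relative to the median gene). Cyb5b, a cytochrome b5, rose by 0.82 ± 0.04 with EIPA. Fads3 went the other way from Fads1 and Fads2: it had 149 ± 10.96 TPM in EIPA against 169.7 ± 20.2 TPM in vehicle at 0.2 mM and 89.0 ± 3.67 TPM in vehicle at 4 mM. Fads3 was higher at 0.2 mM glutamine (0.92 ± 0.07, limma adjusted p = 4.2e-10), or 0.78 relative to the median gene. Its fall with EIPA (-0.18 ± 0.07, limma adjusted p = 0.043) was lost when any 1 of EIPA replicates 1 to 3 or vehicle replicates 1 to 4 at 0.2 mM was left out, with adjusted p of 0.068 to 0.14, and with no filter (0.071) or only the groups compared (0.081), in a range of 0.0016 to 0.14 over its alternatives. Hacd1, a dehydratase of elongation, fell with EIPA (-0.40 ± 0.10, limma adjusted p = 0.0017).

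Among 18 tested regulators, 6 rose and 3 fell with EIPA, and 7 were higher and 5 lower at 0.2 mM glutamine (4 and 8 under median-of-ratios scaling). Insig1, which holds the sterol-sensing complex in the endoplasmic reticulum, had 293 ± 32.7 TPM in EIPA against 17.7 ± 0.96 TPM in vehicle at 0.2 mM and 68.2 ± 11.7 TPM in vehicle at 4 mM, a rise of 3.97 ± 0.10. Srebf2, which mainly drives cholesterol genes, rose by 1.63 ± 0.10 and Srebf1, which mainly drives fatty acid genes, by 0.55 ± 0.10. At 0.2 mM glutamine these 3 were lower, at -2.01, -1.48 and -1.12 relative to the median gene. Prkab2, a subunit of AMP-activated kinase, fell by 0.48 ± 0.10 on the log2 scale with EIPA and Mbtps1, which cuts these factors, by 0.21 ± 0.05. Mid1ip1, an activator of acetyl-CoA carboxylase, changed by 0.06 ± 0.13 with EIPA (limma adjusted p = 0.73) and was lower at 0.2 mM (-1.33 relative to the median gene).

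Of 27 tested genes of activation, binding and glycerolipid assembly, 14 rose and 6 fell with EIPA (median 0.25), and 8 were higher and 12 lower at 0.2 mM glutamine (6 and 14 under median-of-ratios scaling). Slc27a1, a fatty acid transporter, rose by 1.66 ± 0.13 and Lpin1, a phosphatidate phosphatase, by 1.58 ± 0.13. Mgll, which cleaves monoglycerides, had 4.64 ± 1.57 TPM in EIPA against 13.4 ± 1.88 TPM in vehicle at 0.2 mM and fell by 1.38 ± 0.20 on the log2 scale, and Gpam, which starts glycerolipid assembly, fell by 0.38 ± 0.10. Fatty acid oxidation counted 4 genes up and 5 down of 23 with EIPA (4 and 8 under quantile normalisation), and 6 up and 12 down at 0.2 mM (3 and 15 under median-of-ratios scaling). Acadm rose by 0.50 ± 0.08 and Acadl by 0.48 ± 0.06, while Acadvl fell by 1.02 ± 0.10 and Etfb by 0.64 ± 0.07 on the log2 scale with EIPA. The first 3 are acyl-CoA dehydrogenases and Etfb carries their electrons. Cpt1a, the gate to mitochondrial oxidation, had 16.6 ± 2.39 TPM in EIPA against 16.5 ± 1.22 TPM in vehicle at 0.2 mM (-0.0025 ± 0.11, limma adjusted p = 0.99). Mitochondrial fatty acid synthesis, a separate route, had 1 gene up, the malonyl transferase Mcat (0.86 ± 0.08), and 2 down, the reductase Mecr (-0.66 ± 0.08) and the malonyl-CoA synthetase Acsf3 (-0.50 ± 0.08), of 6 with EIPA. With IL-1a limma called 0 of the 125 tested genes of these 7 lists, where it called 0.283% of all tested genes. An unadjusted p under 0.05 was found for 5 of the 125, no more than that threshold passes by chance.

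**Figure D5:**
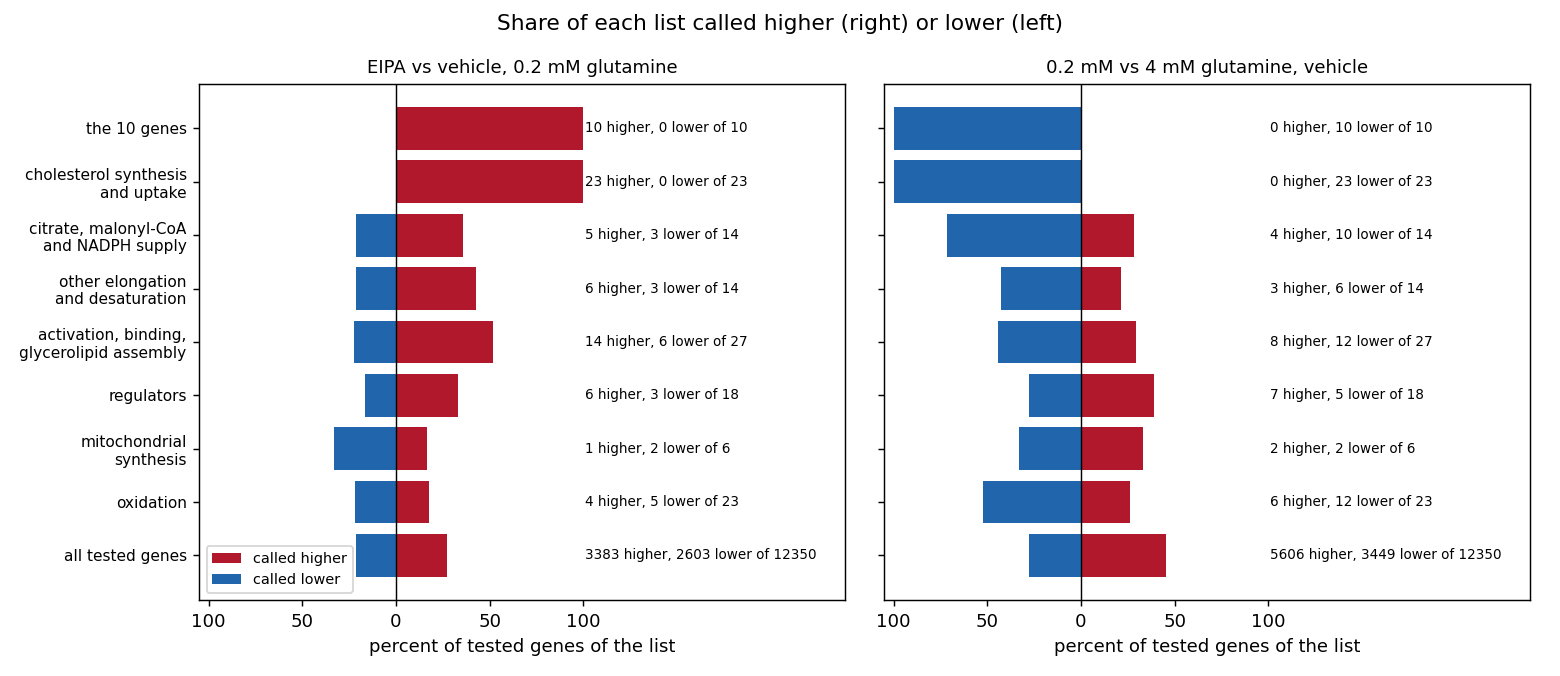
Percent of the tested genes of each list called higher (right, red) or lower (left, blue) with EIPA and at 0.2 against 4 mM glutamine in vehicle, with counts at the right. The 10 genes and the 23 cholesterol genes are called in full to 1 side in both panels, and the other lists are split.

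Among the 8 genes whose levels over the 20 libraries were most like the mean standardised level of the 10 genes were Dhcr7 (Pearson r = 0.98), Hmgcs1 (0.98), Erg28 (0.98), Sqle (0.98), Srebf2 (0.98), Fdft1 (0.97) and Tm7sf2 (0.96). This is a description over libraries that share 4 conditions, with no test.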

How the data were processed

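RNA was extracted from the CAFs, polyadenylated RNA was made into libraries, and both ends were read for 75 bases, per the labels' protocols. The authors deposited TPM values per gene and library. RSEM and the build mm10 are listed, with no version, per the submitters' processing notes. For the aligner and the annotation, the sources used here give nothing. Library sums lay at 999999.47 to 1000000.84 TPM, which keeps no depth, so no counting interval is given.

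Tests covered the 12350 of 32285 genes that reached 1 TPM in 5 or more libraries. A single limma model (version 3.58.1, R 4.3.3) of the 4 groups, with an intensity trend, was fitted to log2(TPM + 1). Within each comparison, the Benjamini-Hochberg method ran over every tested gene, and a gene was called at an adjusted p under 0.05. The procedure was tested on simulated data. Ratios of genes were compared by two-sided exact permutation. Gene positions come from GENCODE M21, and promoters from RefSeq on GRCm38.p6. The members and the gene lists were chosen with earlier results of these data known, so their direction is no independent evidence. Of the listed genes, those named are up to 2 with the largest called rise and up to 2 with the largest called fall with EIPA per list (where the higher group averaged 5 TPM or more), a panel of 8 genes, and the 8 genes most like the members' mean level. A few genes that this rule names are not reported here.

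Alternatives were a pseudocount of 0.1, no filter, a mean of at least 5 TPM, median-of-ratios scaling, quantile normalisation, leaving out mitochondrially encoded genes, fitting only the groups compared, a replicate block, leaving out each library, and leaving out the 3 libraries that stood apart. Leaving out EIPA replicates 4 and 5 together was added after the data were seen.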

Additional observations from a re-analysis of the deposited data

Results flagged for a closer look

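The response to EIPA differed from the response to IL-1a in 9 of the 10 genes, in the test of the difference itself (limma, adjusted over all tested genes). That test called 28.9% of tested genes, 16.3% with the higher and 12.6% with the lower EIPA response. Each difference is a log2 fold change with EIPA at 0.2 mM glutamine minus that with IL-1a at 4 mM, with its SE. Among the desaturases it was 2.73 ± 0.25 for Scd2, 1.51 ± 0.23 for Scd1, 1.57 ± 0.29 for Fads2 and 1.17 ± 0.23 for Fads1. For the elongases it was 2.31 ± 0.16 for Elovl6 and 0.46 ± 0.11 for Elovl5. In the steps before elongation it was 1.94 ± 0.13 for Fasn, 1.69 ± 0.24 for Acss2 and 1.29 ± 0.12 for Acly. The adjusted p of the 9 ran between 6.2e-10 for Fasn and 0.0046 for Elovl5. EIPA was given at 0.2 mM glutamine and IL-1a at 4 mM, so treatment and glutamine level cannot be told apart here. No single library stood out by Dixon's criterion (a gap too large for the range of its group) in any of the 52 groups of 5 values examined, a criterion that chance meets in about 5% of groups. It takes the gap between the extreme value and its neighbour. Libraries that lie apart together, such as EIPA replicates 4 and 5, therefore hide each other from it.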

How the results depend on the processing

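Of the 10 genes, 9 or 10 were called higher with EIPA and 9 or 10 lower at 0.2 mM glutamine under every alternative run. With IL-1a none of the 10 was called under any alternative run, and signs turned on leaving out 1 library, with log2 changes of -0.030 to 0.21 for Fads1, -0.010 to 0.064 for Acly, -0.10 to 0.19 for Fads2, -0.073 to 0.028 for Fasn, -0.0086 to 0.20 for Scd2 and -0.020 to 0.087 for Elovl5. Without the 3 libraries that stood apart, IL-1a gave -0.023 for Fads1, -0.070 for Fads2, 0.034 for Fasn and -0.038 for Elovl5. The counts of all genes called with IL-1a, 32 higher and 3 lower, became 18 higher and 1 lower with only the groups compared, 7 lower with no filter, 8 lower with the replicate block and 1 to 6 lower on leaving out 1 library. For EIPA against vehicle at 4 mM, members called lower numbered 3 under median-of-ratios scaling (3 higher), 2 under quantile normalisation, 2 with the replicate block, 3 without EIPA replicates 4 and 5, and 1 to 3 on leaving out 1 library. There, Scd1 gave -0.059 under median-of-ratios scaling and -0.11 without EIPA replicates 4 and 5, and Fads1 gave 0.013 without the 3 libraries and -0.19 to 0.013 on leaving out 1. With EIPA at 0.2 mM, Mid1ip1 gave -0.034 and Cpt1a 0.14 without EIPA replicates 4 and 5, and Cpt1a -0.043 to 0.060 on leaving out 1 library. For glutamine, Etfb gave 0.029 without the 3 libraries and -0.067 to 0.029 on leaving out 1, and Mbtps1 gave -0.064 under median-of-ratios scaling and -0.013 under quantile normalisation. The difference of Acaca between the EIPA and IL-1a responses was called with the replicate block (adjusted p = 0.033) and without EIPA replicate 1 (0.022). The cause of these changes was not tested.

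The labels do not tie equal replicate numbers together, and the numbers did not meet the rule for pairing: deviations of same-numbered libraries correlated at -0.28 to 0.60, over 0.1 in 4 of 5 pairs for EIPA and for IL-1a and in 2 of 5 in each of the other comparisons. Each library correlated best with its own number in 4 of 5 pairs for EIPA and for glutamine, and in 2 of 5 for IL-1a and for EIPA against vehicle at 4 mM, a hint from the data and not the design. With a replicate block the calls of the 6 ratio differences were lost, since a sign-flip test of 5 pairs cannot pass the threshold (adjusted p = 0.080). With balanced pairs the differences are by construction as without it, at 1.14 and -1.57 (Scd2 to Scd1), 0.35 and -1.37 (Fads2 to Fads1), and 1.92 and -1.69 (Elovl6 to Elovl5). The ratio of Scd2 to Scd1 with IL-1a, at -0.070, had the same adjusted p of 0.080, being lower in all 5 pairs. TPM keep no depth, so the counting error of genes of a few TPM, such as Acss2, is unknown.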
